A study of Sus scrofa with 20 samples.

Results

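Of 20 poly(A) RNA libraries from pigs, 15 were prepared from sorted liver cells, and these 15 are compared here as 2 sets defined by the number in the library title. The first set holds the 8 libraries S3, S4, S5, S8, S9, S12, S13 and S14 (written S3-S14 below) and the second the 7 libraries S16, S17, S18, S19, S21, S22 and S23 (written S16-S23). The boundary between the sets was chosen by the values of AFP, the main serum protein of the fetal liver, in these same libraries: its normalized count, a read count divided by a scaling factor for each library, was 139156 in S14 and 961 in S16. Since the rule used these measurements, differences between the sets are given as descriptions with their spread and no p-value is printed for them. Where a gene is said to be called, the threshold of the fit serves to sort genes by size and spread, and on a boundary placed in the same libraries it is not a test of the sets. No label names the sets as a treatment, age or genotype.

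The sort labels were not balanced between the sets. S3-S14 held 3 CD45+, 3 CD45-/EpCAM+ and 2 CD45-/EpCAM- libraries, and S16-S23 held 2 CD45+, 1 CD45-/EpCAM+, 2 CD31+ and 2 CD146+ libraries. CD45 is the common antigen of leukocytes, EpCAM an adhesion molecule of epithelia, CD31 an antigen of endothelium, and CD146 an antigen of endothelium and perivascular cells. Age, line, sex and donor are not given for single liver libraries in the sources used here. The study's methods state for all its cells that pig hepatocytes came from neonatal livers, that liver stem cells and progenitors came from fetal or neonatal ones, that wild-type pigs were a cross of several breeds, and that the pig cells came from 5 donors. The title numbers of the 5 libraries of pBTSCs (porcine biliary tree stem cells) match storage numbers that the study lists with a donor: S2, S7 and S11 came from newborn piglets of an H2B-GFP line (a GFP-tagged H2B histone transgene), whereas S15 and S20 came from newborn wild-type piglets. The pBTSC numbers divide the liver numbers into 5 runs, S3 to S5, S8 to S9, S12 to S14, S16 to S19 and S21 to S23, and libraries of a run may share an animal. Animal, line and day of preparation cannot be told apart from the set.

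The liver of a fetus makes blood cells as well as plasma proteins, and around birth it hands blood formation to the bone marrow, stops making AFP, and switches on enzymes of drug metabolism, urea synthesis and bile acid synthesis in its hepatocytes. Much of that hepatocyte programme is driven by nuclear receptors and by hormones such as growth hormone, glucocorticoid and thyroid hormone. Interferons, released when cells sense viral nucleic acid, switch on a separate group of antiviral genes in nearly every cell type.

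Estimated from the value of 1 read, 13 of the 15 liver libraries had 21200000 to 50200000 reads assigned to genes, whereas S13 had 801000 and S22 had 455000. In S13, 3 reads correspond to 77.1 normalized counts and in S22 to 156, so low values of these 2 libraries carry little information. Hepatocyte RNA was abundant under every label, with ALB, the gene of serum albumin, from 513084 to 1348204 with a median of 615869.9 in S3-S14 and from 1366702 to 1789958 with a median of 1658645 in S16-S23. The antigen of the sort did not mark the labelled library in most runs. PTPRC, the gene of CD45, was lowest in the CD45+ library in 4 of 5 runs, and EPCAM was highest in the CD45-/EpCAM+ library in 1 of 4 runs. PECAM1, the gene of CD31, was highest in the CD31+ library in 0 of 2 runs and MCAM, the gene of CD146, in the CD146+ library in 2 of 2. The labels are therefore used below as names of libraries. The nearest pair of the deeper libraries, S18 and S19, differed by 1.71 times the counting noise expected at their depth.

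AFP was measured from 65022 to 176993 with a median of 132753 in S3-S14 and from 914 to 2034 with a median of 1043 in S16-S23. All 8 libraries of the first set lay above all 7 of the second, and the log2 difference of normalized count + 1, taken throughout as the mean of S16-S23 minus the mean of S3-S14 and given in parentheses where it is not named, was -6.54 (SE 0.25). This separation was fixed by the choice of the boundary. The lowest of the first set was S12 with 65022 and the highest of the second S22 with 2034, both well away from the other set. HIST1H2BB, a histone H2B gene, stood from 1637 to 5034 with a median of 3533 in S3-S14 and from 0 to 43.1 with a median of 22.2 in S16-S23, a log2 difference of -7.67 (SE 0.61). It followed the line in the pBTSC libraries, with 3306, 3388 and 3927 in S2, S7 and S11 of the H2B-GFP line and 12.6 and 11.6 in S15 and S20 of the wild type. AFP in the same pBTSC libraries was 8066, 1048 and 3856 in S2, S7 and S11 and 12087 and 8054 in S15 and S20, so its sets overlapped there.

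**Figure D1:**
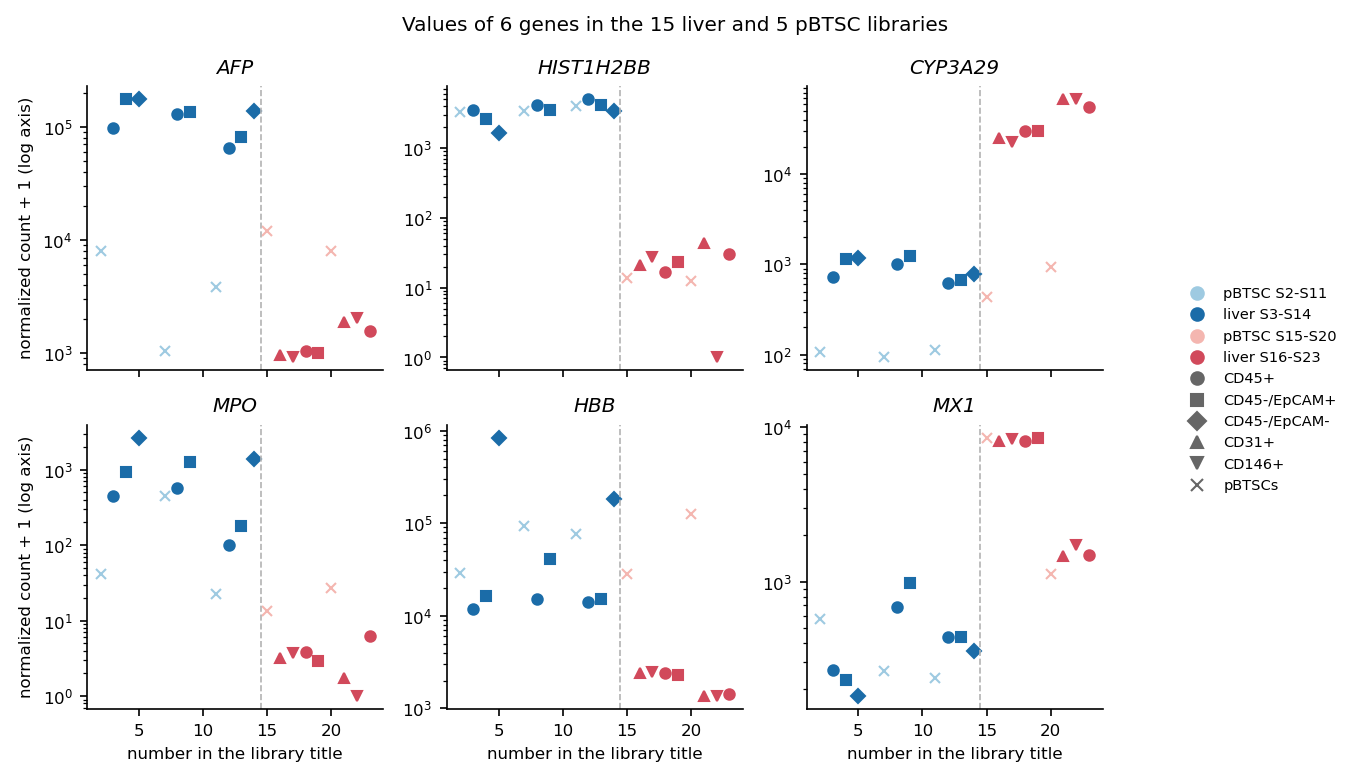
Normalized count + 1 (vertical log axis) of 6 genes against the number in the library title, with 1 point per library, colour for the set, marker shape for the sort label, and a dashed line at the boundary between S14 and S16. AFP, HIST1H2BB, MPO and HBB are higher in all 8 liver libraries of S3-S14 and CYP3A29 and MX1 in all 7 of S16-S23, where MX1 is split between S16 to S19 and S21 to S23.

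Across the 14910 genes tested, limma called 1851 (12.4%) at an adjusted p under 0.05 and an absolute log2 difference above 1, of which 1032 (6.92%) were higher and 819 (5.49%) lower in S16-S23. Of the genes called, 543 had all 7 libraries of S16-S23 above all 8 of S3-S14 and 410 had all 7 below. Among all tested genes, called or not, 1100 (7.38%) were higher with no overlap and 1241 (8.32%) lower with no overlap. These shares and those of the calls are the background for the list counts below. The call rule thus covers genes whose sets overlap, and each gene below is given with its range. The count depended on how the libraries were grouped: 564 genes were called with the sort label as a covariate and 152 when each of the 5 runs entered as 1 mean.

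In the 13 deeper libraries, 49.4% of the sum of squares of log2 values lay between the sets, 25.7% between runs within a set and 24.9% within runs. Sort labels alone, with the sets ignored, accounted for 46.4%, a share that overlaps with the former because the labels differ between the sets. The labels form 5 groups and the sets 2, and more groups take a larger share even where nothing differs. The 46.4% and 49.4% are therefore not comparable in size. Across genes, which are not independent, the Pearson correlation of 2 libraries had a median of 0.994 over 12 pairs of the same run, 0.964 over 24 pairs of the same set in other runs, and 0.931 over 42 pairs of different sets. The 4 libraries S16 to S19 carried 4 different labels and correlated at 0.994 to 0.995 with each other. In S3 to S5 the range was 0.909 to 0.985, the lowest being pairs with S5, a CD45-/EpCAM- library.

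Enzymes of drug and steroid metabolism were higher in S16-S23. Of the 19 listed genes tested, 12 were called higher and 0 lower, where 6.92% and 5.49% of all genes were, with a median log2 difference of 1.48, against -0.02 over all genes tested. ADH4, an alcohol dehydrogenase that also oxidizes retinol, was measured from 11.2 to 77.1 with a median of 25.6 in S3-S14 and from 3419.5 to 11269.8 with a median of 4578 in S16-S23, where every library was over 3000 and no library of S3-S14 passed 100, a log2 difference of 7.72 (SE 0.42). CYP3A29, a pig cytochrome P450 of the family that oxidizes most drugs, was from 623 to 1241 with a median of 904 in the first set and from 22897 to 68618 with a median of 30088 in the second, a ratio of medians of 33.3. Within the second set S21, S22 and S23 lay above S16 to S19, at 55154 to 68618 against 22897 to 30088.

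CYP2C49 and CYP1A2, P450s that act on drugs and aromatic amines, had no overlap between the sets either, with log2 differences of 4.71 (SE 0.21) and 4.55 (SE 0.32). CYP2C49 was from 156 to 527 with a median of 256 in S3-S14, S14 being the highest, and from 4912 to 9165 with a median of 6500.4 in S16-S23. CYP1A2 was from 25.7 to 166 with a median of 103 and from 1631 to 2519.9 with a median of 2034, respectively. CYP2E1, which metabolizes ethanol and ketones, was from 2937 to 6848 with a median of 3496 in S3-S14 and from 12969 to 42673 with a median of 18037 in S16-S23, again highest in S21 to S23 with 32799.9 to 42673. Smaller differences without overlap were found for FMO5, a flavin monooxygenase (3.27), AOX1, aldehyde oxidase (2.99), CYP2C42 (2.11), UGT2B31, a glucuronosyltransferase (1.48) and CYP4A24, a fatty acid hydroxylase (1.31).

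The call of CYP2A19 rested on 1 run. It reached 482 to 705 in S16 to S19 but 0 to 32.1 in S21 to S23, against 0 to 20.6 in S3-S14, and its log2 difference of 3.34 (SE 1.25) became -0.06 without S16 to S19. Leaving out any single library other than S3, S21, S22 or S23 also ended its call. Not every enzyme of the group was higher. SULT2A1, a steroid sulfotransferase, had a log2 difference of -1.0 (SE 0.67) and POR, the reductase that passes electrons to all microsomal P450s, of -0.42 (SE 0.09), and the sets overlapped for both.

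Among 16 transcription factors of hepatocytes, 2 were called higher and 0 lower, where 6.92% and 5.49% of all genes were. These counts are near the background, and the median log2 difference was 0.31. NR1I3, the nuclear receptor CAR that controls drug-metabolizing P450s, was from 64.9 to 193 with a median of 97.9 in S3-S14 and from 445 to 709.8 with a median of 528 in S16-S23, with no overlap and a log2 difference of 2.40 (SE 0.22). PPARA, the receptor that controls fatty acid oxidation, differed by 1.23 (SE 0.27) and its sets overlapped, since S4 had 437 and S17 had 324. The 14 plasma protein genes had 0 calls (median 0.18), as did the 13 genes of gluconeogenesis and glycogen. ALB did not overlap between the sets but was not called (1.18, SE 0.94). The SE of a gene is drawn by limma towards that of other genes at its level, and the size of this effect on ALB is not given here. The 0 calls of the plasma protein list therefore do not show that its genes were alike in the sets.

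The receptor and the main targets of growth hormone were higher in S16-S23. Growth hormone acts through its receptor to make the liver secrete IGF1 and IGFALS, a subunit of the complex that carries IGFs in plasma. Of 8 genes tested, 4 were called higher and 1 lower, where 6.92% and 5.49% of all genes were. GHR, the receptor, was from 253 to 914 with a median of 401 in S3-S14, the highest being S4, and from 1462 to 2232 with a median of 1728 in S16-S23, with no overlap and a log2 difference of 2.07 (SE 0.20). IGFALS was from 154 to 458 with a median of 287 and from 915 to 1606 with a median of 1075, a difference of 2.04 (SE 0.22) without overlap. IGF1 was from 45.9 to 204 with a median of 144 in the first set and from 71.3 to 541 with a median of 491 in the second, where the shallow library S22 with 71.3 fell among the first set and the other 6 lay above it (1.60, SE 0.43). IGFBP1, an IGF-binding protein induced by fasting, was lower (-2.22, SE 0.69), but its runs differed, with 2847 to 4674 in S3 to S5, 8670.5 to 9286 in S8 to S9 and 257 to 717 in S12 to S14, the last overlapping with 301 to 538 in S16-S23. IGFBP2 was not called (-0.60, SE 0.39).

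Of 11 genes of fetal and imprinted growth, AFP was lower by the choice of the boundary, and of the others 1 was called lower and 1 higher. The shares of all genes were 5.49% lower and 6.92% higher, so the counts without AFP are near the background. PEG10, an imprinted gene of retrotransposon origin, was from 8917 to 38634 with a median of 22781 in S3-S14 and from 4053 to 5698 with a median of 4459.8 in S16-S23 with no overlap (-2.04, SE 0.25). DLK1, an imprinted gene of hepatoblasts and other fetal cells, went the other way, from 0 to 96.4 with a median of 19.4 against from 184 to 523 with a median of 249 (3.97, SE 0.77), though S13 had 0 at its shallow depth. GPC3, a glypican of hepatoblasts, was not called (-0.49, SE 0.28).

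**Figure D2:**
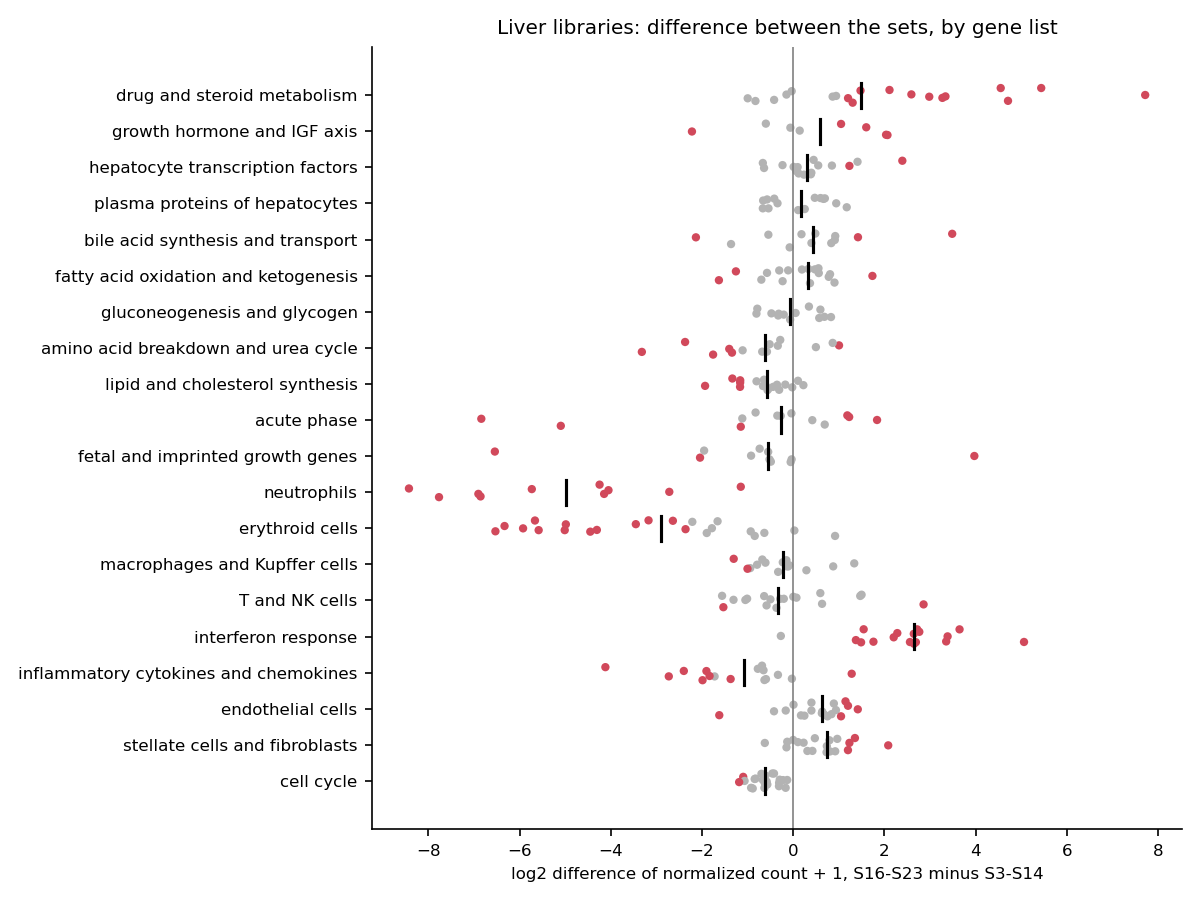
Log2 difference of normalized count + 1 (horizontal axis, S16-S23 minus S3-S14) for the tested genes of 20 lists, with 1 point per gene, red for genes called, grey for others, and a black bar at the median of the list. The interferon and drug metabolism lists lie mostly right of 0 with medians of 2.65 and 1.48, and the neutrophil and erythroid lists left of 0 with medians of -4.99 and -2.90.

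Neutrophil genes had the lowest median of the cell type and pathway lists. All 10 neutrophil genes tested were called lower in S16-S23, with a median log2 difference of -4.99, and 7 of them had no overlap. Over all genes, 5.49% were called lower and 8.32% were lower without overlap. MPO, myeloperoxidase, was from 101 to 2664 with a median of 752 in S3-S14 and from 0 to 5.28 with a median of 2.16 in S16-S23 (-7.77, SE 0.62). ELANE, neutrophil elastase, was from 49.4 to 1428 with a median of 249 and from 0 to 1.93 with a median of 1.28, and LTF, lactoferrin, from 269 to 11120.1 with a median of 1544 and from 3.60 to 52.2 with a median of 9.13. Most values of MPO and ELANE in S16-S23 were at or near the level of 3 reads, which is 1.35 to 4.28 normalized counts in the deeper libraries, so that the size of the fold rests on the pseudocount. MPO and ELANE reached the 10 normalized counts needed for testing only in S3-S14, where they were high, so this selection favours their calls. In bulk RNA, fewer cells of a type and less RNA per cell cannot be told apart.

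The naming rule for the largest differences towards S3-S14 gave further genes of neutrophils, beside AFP, HIST1H2BB, S100G, HAMP and SLC4A1. NPG1, which encodes a protegrin, an antimicrobial peptide of pig neutrophils, was from 1144 to 23896 with a median of 6019.6 in S3-S14 and from 0 to 35.5 with a median of 6.60 in S16-S23 (-9.52, SE 0.74). The others were PRTN3 (-8.68), AZU1 (-7.82), PGLYRP1 (-7.13), CD177 (-6.28), RETN, resistin (-7.43) and S100A12 (-8.43), the last also on the list. The CD45-/EpCAM- libraries S5 and S14, a label that S16-S23 lacks, were the highest and next highest in the summed level of the list. That sum was 83271 in S5, 18447 in S14, 2124 to 16538 in the other 6 libraries of S3-S14 and 556 to 909 in S16-S23. Without S5 and S14, 9 of the 10 genes were still called lower, MPO at -7.22. S100G, a vitamin D-induced calcium-binding protein and no neutrophil gene, was from 1085 to 26222 with a median of 4767 in S3-S14 and from 2.49 to 13.7 with a median of 6.92 in S16-S23 (-9.20, SE 0.56).

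Erythroid genes were also lower in S16-S23. Of 22 tested, 13 were called lower and 0 higher, with a median log2 difference of -2.90 and 11 without overlap. Over all genes, 5.49% were called lower and 8.32% were lower without overlap. HBB, beta globin, was 840919 in S5 and 181672 in S14, 11736 to 41024 in the other 6 libraries of S3-S14, and from 1355 to 2480.2 with a median of 2314 in S16-S23 (-4.30, SE 0.78). The globin level thus varied more within S3-S14 than between its lower libraries and S16-S23. SLC4A1, the anion exchanger of the red cell membrane, was from 232 to 15882 with a median of 571 and from 0 to 25.2 with a median of 15.5 (-6.53, SE 0.88), and AHSP, the chaperone of alpha globin, from 82.2 to 7664 with a median of 164 and from 0 to 4.84 with a median of 3.60 (-6.33, SE 0.86). HBM, ALAS2 of haem synthesis and KLF1, the erythroid transcription factor, differed by -5.66, -3.45 and -5.58, and MYB, which is needed in blood progenitors, by -4.07 (SE 0.71). Without S5 and S14, 12 of 21 erythroid genes were called lower and 1 higher, with HBB at -3.18. AHSP reached the 10 normalized counts needed for testing only in S3-S14, where it was high. CD34, of blood progenitors and endothelium, differed in the other direction (1.70, SE 0.37).

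**Figure D3:**
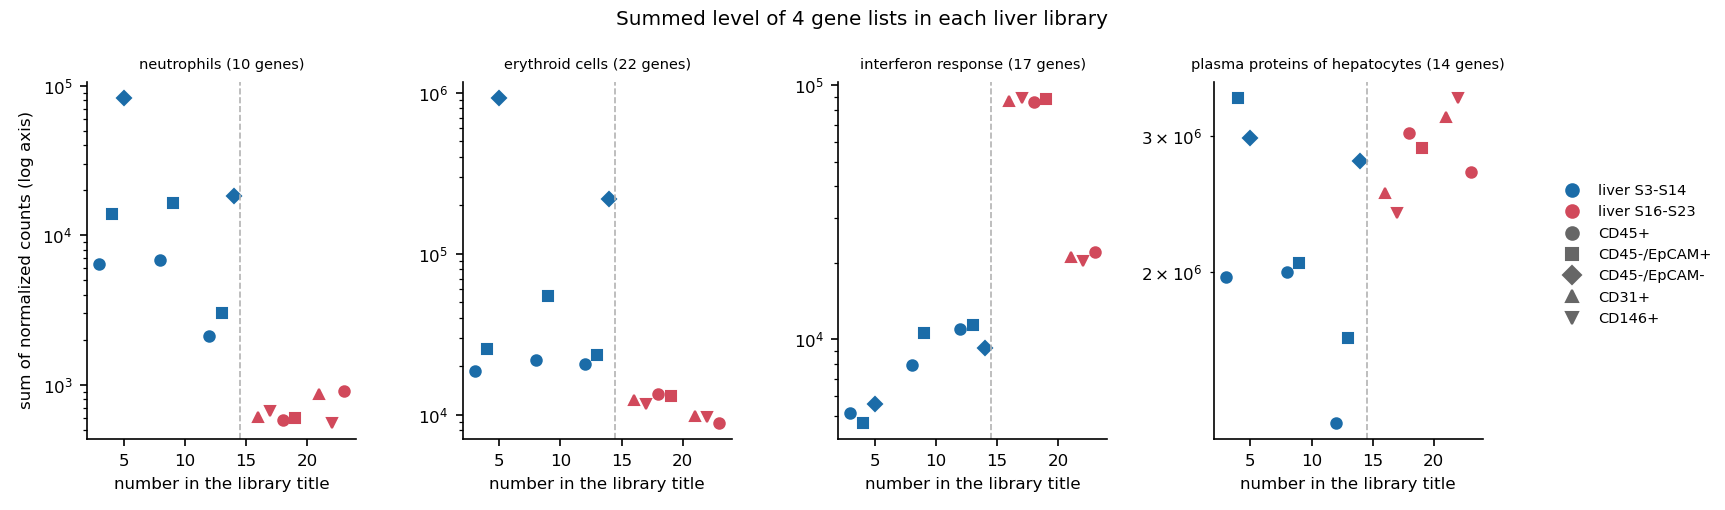
Sum of normalized counts (vertical log axis, a different range in each panel) over the genes of 4 lists in each of the 15 liver libraries, against the number in the library title, with colour for the set and marker shape for the sort label. Neutrophil and erythroid sums are highest in S5, interferon sums are highest in S16 to S19, and the sums of the plasma proteins overlap between the sets.

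The interferon response separated the 2 runs of S16-S23. Of 17 genes tested, 16 were called higher in S16-S23, with a median log2 difference of 2.65, and 11 had no overlap. Over all genes, 6.92% were called higher and 7.38% were higher without overlap. MX1, an antiviral GTPase, was 8118, 8434, 8194 and 8522 in S16 to S19, 1456, 1721 and 1483 in S21 to S23, and 179.7 to 982 in S3-S14. The 4 libraries of the run S16 to S19 lay above all other liver libraries, while S21 to S23 lay just above S9, the highest of S3-S14. RSAD2, viperin, was 5226 to 5649, 163 to 559.9 and 19.3 to 119 in the same 3 groups of libraries, and OAS2, an oligoadenylate synthetase, 12635 to 13389.6, 3992 to 4925 and 517 to 1108.

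IFI6 (3.65), ISG12(A) (3.44), ISG15 (2.56) and CXCL10, a chemokine for T cells (2.77), had the same order of runs. ISG15 in S21 to S23 was 313 to 401, which overlapped with 147 to 351 in S3-S14. OASL, listed at 0 to 12.9 in every liver library, was the gene that was not called. Without S16 to S19, 7 of the 17 genes were called higher, OAS2 at 2.47 and MX1 at 2.0, with a median of 1.36. With each run as 1 mean, which leaves 3 values against 2, 0 were called at a median of 2.45. In the pBTSC libraries, MX1 was 8582 in S15, whose number adjoins S16, 1125 in S20 and 569, 261 and 238 in S2, S7 and S11. The high level was thus found in libraries with the numbers 15 to 19, of liver and of pBTSCs.

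Genes of amino acid breakdown and of cholesterol and lipid synthesis were lower in part. Of 14 amino acid and urea cycle genes, 1 was called higher and 5 lower, where 6.92% and 5.49% of all genes were (median log2 difference -0.63). Without overlap, 1 of the 14 was higher and 0 lower, against 7.38% and 8.32% of all genes. HAL, which breaks down histidine, was 4311 to 7774 in S3 to S5 and 4741 to 4839 in S8 to S9, but 208 to 416 in S12 to S14, 218 to 269.8 in S16 to S19 and 107 to 135 in S21 to S23 (-3.32, SE 0.77). ARG1, the last enzyme of the urea cycle, had the same shape with 13544 to 23211, 15868 to 16312, 1268 to 3300.4, 1708 to 2163 and 1017 to 1073 in the 5 runs (-2.37, SE 0.61). For these genes and for GLS2, a glutaminase (-1.76, SE 0.52), the run S12 to S14 lay with S16-S23 and not with its own set. CPS1, the first enzyme of the cycle, was not called (-0.52, SE 0.52). The number called lower depended on the libraries more than the median did: without S16 to S19 it was 1, which was HAL, at a median of -0.59, with the sort label as a covariate 0 at -0.63, and without S12 to S14 8 at -1.49.

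Of 18 genes of lipid and cholesterol synthesis, 5 were called lower and 0 higher, where 5.49% and 6.92% of all genes were (median -0.58). Without overlap, 1 of the 18 was lower and 0 higher, against 8.32% and 7.38% of all genes. The number lower was 0 without S16 to S19 (median -0.72), 0 with the sort label as a covariate (-0.48) and 9 without S12 to S14 (-0.98). SCD, the desaturase that makes oleate, was from 2850.1 to 21658 with a median of 7262 in S3-S14 and from 1503 to 2713 with a median of 1743 in S16-S23 with no overlap (-1.93, SE 0.39), although S12 with 2850.1 came close to S22 with 2713. HMGCS1, of the mevalonate pathway, was 4199.7 to 6930.4 in S3 to S5 and 1051 to 1404 in S12 to S14, the latter overlapping with 928 to 1244 in S16-S23 (-1.33, SE 0.35). Among 17 genes of fatty acid oxidation, 1 was called higher and 2 lower, where 6.92% and 5.49% of all genes were, so these counts are near the background. PLIN2, a coat protein of lipid droplets, was lower (-1.63, SE 0.20), as was ANGPTL4, an inhibitor of lipoprotein lipase (-1.26, SE 0.25), both without overlap.

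Of 12 genes of bile acid synthesis and transport, 2 were called higher and 1 lower, where 6.92% and 5.49% of all genes were. CYP7A1, the rate-limiting enzyme of bile acid synthesis, was from 2.74 to 48.9 with a median of 10 in S3-S14 and from 73.9 to 183 with a median of 145 in S16-S23 (3.49, SE 0.44). The highest value of the first set, in S13, corresponds to under 3 reads, and the other 7 libraries lay at 12 or less. ABCC2, which exports conjugated bilirubin and bile acids, was higher (1.42, SE 0.26) and SLC51B, a subunit of the basolateral bile acid exporter, lower (-2.13, SE 0.28), both without overlap. CYP7B1, of the alternative pathway, had no overlap either but stayed under the threshold (0.91, SE 0.13).

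Acute phase genes were called in both directions, 3 higher and 3 lower of 13, where 6.92% and 5.49% of all genes were. HAMP, hepcidin, which limits iron export into plasma, was 2039.6 to 5847 in S3 to S5, 1049 to 1149 in S8 to S9, 24.5 to 34.6 in S12 to S14, 0.941 to 2.69 in S16 to S19 and 0 to 12.2 in S21 to S23 (-6.84, SE 1.23). S12 to S14 lay nearer to S16-S23 than to the other runs of their own set on the linear scale. APCS, serum amyloid P, also differed between runs of the same set, with 22198 to 43312, 6866 to 7130.1, 1250.2 to 2876, 82.1 to 100.3 and 552 to 939 in the 5 runs (-5.10, SE 0.84). CP, ceruloplasmin, was from 8305 to 25024 with a median of 17527 in S3-S14 and from 46008 to 68382 with a median of 56818 in S16-S23 (1.84, SE 0.23), without overlap, and HPX, hemopexin (1.19, SE 0.29), and C3 of complement (1.23, SE 0.39) were higher with overlap.

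Of 16 inflammatory cytokine and chemokine genes, 7 were called lower in S16-S23 and 1 higher (median -1.07), and 2 were called lower with the sort label as a covariate (-1.17) or on run means (-1.12). IL1A was from 194 to 1028 with a median of 563 in S3-S14 and from 17.9 to 104 with a median of 20.3 in S16-S23, the highest of the latter being the shallow S22 at 2 reads (-4.12, SE 0.43). OSM, oncostatin M, a cytokine of haematopoietic cells (-2.40, SE 0.32), CCL20 (-2.73, SE 0.49) and PTGS2, cyclooxygenase 2 (-1.37, SE 0.28), were lower without overlap, and TNF (-1.99, SE 0.48), CCL3L1 (-1.90, SE 0.51) and IL10 (-1.83, SE 0.51) with overlap. CXCL12, which retains blood progenitors in their niche, was the gene called higher (1.28, SE 0.28), again without overlap. Of 15 macrophage and Kupffer cell genes, 2 were called lower, among them the scavenger receptor MARCO (-1.30, SE 0.24). The T and NK cell list had 1 call in each direction of 18 tested, with CD8B higher (2.86, SE 0.60). The B and plasma cell list had none of 9. Over all genes, 6.92% were called higher and 5.49% lower, so the T and NK cell counts are near the background. Of 5 genes of the MHC class II list tested, 1 was called higher and 0 lower (median 0.83). The call was CIITA, the master regulator of MHC class II genes, higher without overlap (1.51, SE 0.23). The summed level of that list was 28563 to 31602 in S16 to S19 and 17274 to 19863 in S21 to S23. In S3-S14 it was 8226 to 21059, which overlapped with S21 to S23.

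A few vascular and stromal genes were higher. Of 19 endothelial genes, 4 were called higher and 1 lower (median 0.64). Of 19 stellate cell and fibroblast genes, 4 were called higher and 0 lower (median 0.73). Over all genes, 6.92% were called higher and 5.49% lower. PECAM1 was from 4803 to 16311 with a median of 10323 in S3-S14 and from 19884 to 28778 with a median of 25291 in S16-S23 (1.20, SE 0.21), lowest in S5. TEK, an angiopoietin receptor, differed by 1.42 (SE 0.33). RGS5, of pericytes, was from 779 to 8779 with a median of 3891 and from 11641 to 18646 with a median of 16208 (2.09, SE 0.38), and COL3A1 and COL14A1, fibrillar and fibril-associated collagens, differed by 1.36 and 1.23, these 3 without overlap. Without S16 to S19, 0 genes of either list were called, at medians of 0.50 and 0.26. With the sort label as a covariate 0 endothelial genes were called higher and 1 lower (median 0.47), and 2 stellate cell and fibroblast genes higher (0.54). PECAM1 was not called without S5 and S14, at 0.97. CD31+ and CD146+ libraries occurred only in S16-S23. In that set PECAM1 was 26681 and 19884 in the CD45+ libraries S18 and S23. It was 25291, 28778, 20102 and 20655 in the CD31+ and CD146+ libraries S16, S17, S21 and S22. The part of the labels in the difference was not tested. AQP1, a water channel of cholangiocytes and endothelium, was the 1 call among 14 cholangiocyte genes (1.46, SE 0.24). ASNS, asparagine synthetase, a target of amino acid stress, was 1 of 2 heat shock and unfolded protein response genes called lower of 16 (-2.71, SE 0.42). Of the remaining lists, cell cycle genes had 0 calls higher and 2 lower of 22. Progenitor, megakaryocyte and mast cell genes had 1 and 4 of 10, and immediate early genes 0 and 1 of 17. Hypoxia and glycolysis genes had 0 and 1 of 13, and metallothionein and zinc genes 0 and 0 of 4. Apart from the progenitor, megakaryocyte and mast cell genes, these counts are near the shares of all genes.

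Further genes with large differences towards S16-S23 belonged to no metabolic list. MBL2, mannose-binding lectin, was from 17.4 to 85.2 with a median of 30.3 in S3-S14 and from 344 to 677 with a median of 466 in S16-S23 (3.79, SE 0.29). SEC14L3, a lipid-binding protein (4.82), PGC, pepsinogen C (4.10), MFAP3L (4.50) and RERGL (4.49) were higher too, all without overlap. DIO2, the deiodinase that activates thyroid hormone, was from 0 to 76.9 with a median of 25.0 in S3-S14 and from 104 to 320.2 with a median of 241 in S16-S23 (3.68, SE 0.74), higher in S16 to S19 than in S21 to S23.

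The comparison was repeated within the 2 labels that both sets share. Apart from S23, each CD45+ library has a CD45-/EpCAM+ library in its own run. Libraries of a run may share an animal, so agreement between the labels is not independent replication. Within CD45+ (S18 and S23 against S3, S8 and S12), 88 genes were called (0.59%), 54 higher and 34 lower in S16-S23. Within CD45-/EpCAM+ (S19 against S4, S9 and S13), 38 were called (0.255%), 21 higher and 17 lower, S19 being assumed to vary like the other libraries. All 88 genes differed in the same direction in CD45-/EpCAM+ and all 38 in the same direction in CD45+, and 35 were called in both. ADH4 (7.99 in CD45+ and 7.38 in CD45-/EpCAM+), CYP3A29 (5.72 and 4.92), CYP1A2 (4.62 and 5.01) and NR1I3 (2.95 and 2.28) were called higher in both. NPG1 (-7.60 and -10.71) and MPO (-5.91 and -7.69) were called lower in both.

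Whether the set difference depended on the label is a question that the choice of the boundary did not answer. In limma's test of the interaction, which used all 15 libraries, 0 of 14910 genes were called (0.0%), and 25 had an unadjusted p under 0.05. The median absolute interaction was 0.25 on the log2 scale and its median SE 0.59. When only the 4 runs that hold both labels were used, with the run as a block, 0 of 14616 genes were called, 185 had an unadjusted p under 0.05, and the median SE was 0.365, with 2 residual degrees of freedom and S16-S23 represented by S18 and S19 alone. In both fits the genes with an unadjusted p under 0.05 were far fewer than a share of 0.05 of those tested. A calibrated test gives about that share when nothing differs, so both fits were conservative and could call little. A dependence on the label was thus not detected, which does not show that there was none. For MPO the interaction, CD45-/EpCAM+ minus CD45+, was -1.78 (SE 1.57), for NPG1 -3.11 (SE 1.76) and for CYP3A29 -0.80 (SE 0.86). The counts within labels rested on few libraries: for CD45+ they were 11 without S18, 17 without S23, 37 without S3, 42 without S8, 50 without S12, 56 without S16, 56 without S21, 163 without S14 and 165 without S5. For CD45-/EpCAM+ they were 14 without S9, 19 without S3, 21 without S8, 21 without S16, 21 without S21, 21 without S23, 22 without S4, 25 without S18, 63 without S17 and 63 without S22, and no value could be fitted without S19.

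**Figure D4:**
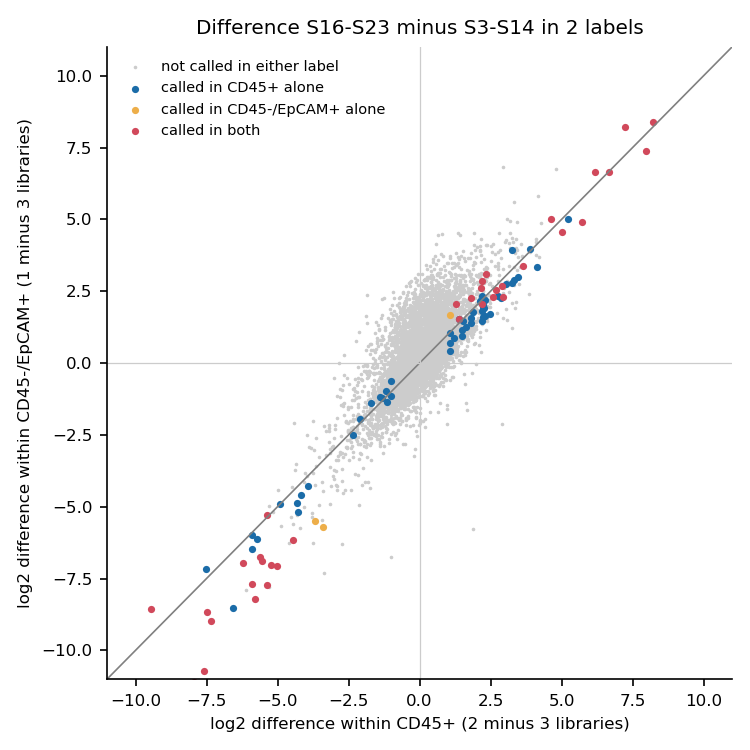
Log2 difference of S16-S23 minus S3-S14 within CD45+ (horizontal axis) and within CD45-/EpCAM+ (vertical axis) for 14910 genes, with colours for the calls and a line of equal values. All 35 genes called in both labels lie in the lower left or the upper right of the plot, on the same side of 0 in both.

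The 5 pBTSC libraries were not used to place the boundary, and the same title numbers divide them into S2, S7 and S11 of the H2B-GFP line and S15 and S20 of the wild type. Between these, limma called 264 of 14912 genes (1.77%), 204 higher (1.37%) and 60 lower (0.402%) in S15 and S20. The study lists a lower RNA integrity for S2, S7 and S11 than for S20, and none for S15. RNA quality therefore cannot be told apart from the line here. Of the 264 genes, 49 (18.6%) were also called in liver in the same direction, 44 of them higher and 5 lower, which is 2.65% of the liver calls. Of the 264 genes 238 were tested in liver, where 6.92% of all genes were called higher and 5.49% lower. The 18.6% is a share of all 264, including those not tested in liver. Another 12 of the 264 were called in liver in the other direction. HIST1H2BB had a log2 difference of -8.08 (SE 0.16), lower in 2 of 2 wild-type libraries. It was listed as a readout of the line with earlier results of these data known, so no p is given. The value of HIST1H2BB in S15 corresponds to 1 read. Of 19 genes of drug and steroid metabolism, 7 were called higher in the wild-type pBTSCs and 6 of them also in liver, ADH4 included. A gene could pass the filter through S15 and S20 alone, which favours calls higher there. That limit holds for these counts and for the 204 and 44 above, and the genes that passed in this way were not counted. CYP3A29 was 106, 91.9 and 110.03 in S2, S7 and S11 and 437 and 939.7 in S15 and S20. Its log2 difference was 2.63 (SE 0.33), with an adjusted p of 0.0232 in limma's test. ADH4 was 1.36, 0 and 1.27 in S2, S7 and S11 and 37.7 and 161 in S15 and S20 (5.50, SE 0.92). It reached the 10 normalized counts needed for testing only in S15 and S20, where it was high, so no p is given. Its value in S15 corresponds to 3 reads.

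Plasma protein genes of hepatocytes moved with this comparison. Of 14 plasma protein genes, 11 were called higher in the wild-type pBTSCs, where 1.37% of all genes were, with a median log2 difference of 3.74. ALB was 376, 287 and 288 in S2, S7 and S11 against 19832 and 25087 in S15 and S20. The summed level of the plasma protein list was 29275, 31148 and 27242 against 62185 and 86340.3, and none of its genes was at 0 in S15 or S20. Its part in the calls for the metabolic enzymes was not tested. In liver the same list had 0 calls, with the limit on the SE given above for ALB. Of the interferon, neutrophil and erythroid genes, 0 were called in pBTSCs, where 1.77% of all genes were. The interferon list still had a median log2 difference of 2.43 there, with S15 high and S20 lower. The pBTSC count rested on single libraries too, being 24 without the shallow S15, 129 without S7, 135 without S2 and 450 without S20. Without S15 or S20 the other stands alone for the wild type and is assumed to vary like the H2B-GFP libraries. Without S15 the genes also called in liver in the same direction numbered 5, among them HIST1H2BB, CYP3A29 and HPX.

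**Figure D5:**
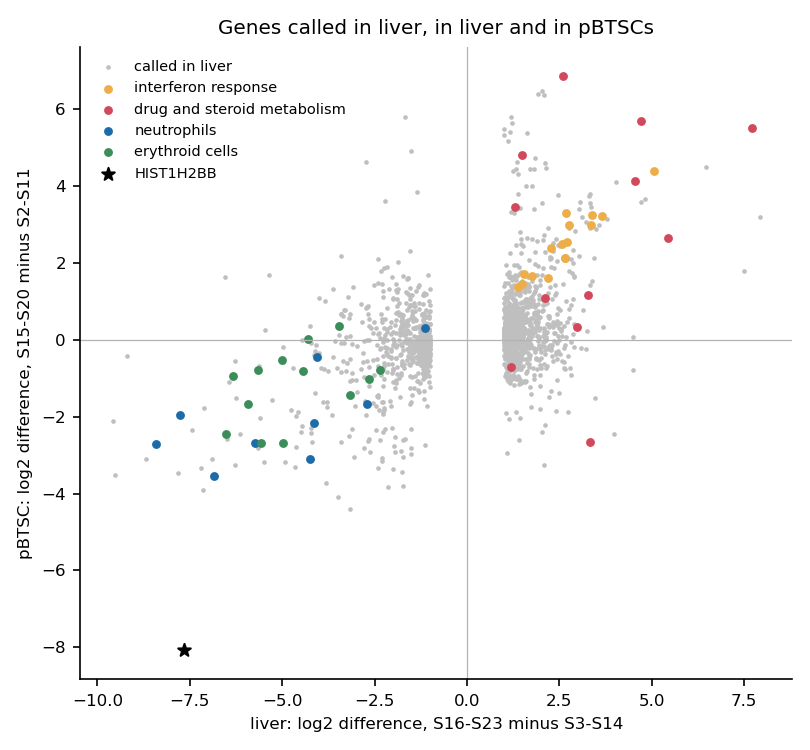
Log2 difference in liver (horizontal axis, S16-S23 minus S3-S14) and in pBTSCs (vertical axis, S15 and S20 minus S2, S7 and S11) for genes called in liver and tested in both, with colours for 4 lists and a star for HIST1H2BB. HIST1H2BB lies at -7.67 in liver and -8.08 in pBTSCs.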

How the data were processed

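RNA was sequenced as poly(A) libraries from sorted pig liver cells and pBTSCs. Per the authors' deposited table, values are a normalized signal: the read count of a gene over a size factor of its library, so that values are not whole. STAR, Salmon and DESeq2 are named in the submitters' processing notes, and the genome build is not given in the sources used here. Of 25764 rows, 7782 carry no gene name and were tested but not named. Depth per library was estimated from the value of 1 read at low counts, with 3 reads as the floor, which covers counting error only.

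Groups came from the title numbers, and libraries entered the fits as replicates. With 5 donors of pig cells the libraries cannot all be separate animals, so libraries of a run may be technical repeats and the SEs too small, and the count on run means is given beside the main one. A gene was tested where 2 or more libraries reached 10 normalized counts. Linear models on log2(normalized count + 1) were fitted in R (4.3.3) by limma (3.58.1), the spread being moderated with a trend on the mean level, with Benjamini-Hochberg adjustment over all genes tested. The log2 difference is on that scale and understates the change of low genes. The pooled fit used 15 liver libraries, the fits within labels and the interaction used the same libraries as 7 groups of label by set, and pBTSCs were fitted apart. The fits were also run on simulated data in which libraries were drawn independently, unlike libraries of a run that may share an animal. The boundary, members and gene lists were chosen with earlier results of these data known. Genes were named from the lists by role, and by a rule: the 15 largest differences in each direction among named genes called with all libraries and also without S13 and S22, without overlap between the sets, and with a median of at least 200 in the higher set. Further genes named by a rule for called interactions were 0. Of 499 listed names, 412 had a row. The lists of mitochondrially encoded and sex-linked genes had 0 rows under their names. Alternatives covered pseudocount, filter, scaling, weights, covariates, runs and left-out libraries. Results for some of the genes that the rule or the lists would name are not reported here.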

Additional observations from a re-analysis of the deposited data

Results flagged for a closer look

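For 103 named genes, the highest or lowest library of each set was compared with the others by Dixon's gap ratio. Of 206 groups, 29 were flagged. The rule flags about 1 in 20 by chance for independent, normally distributed values. These are untransformed counts of genes that vary together, so that rate is no baseline for the 29. The CD45-/EpCAM- library S5 stood apart from the other 7 of S3-S14 in 15 genes. These were the neutrophil and granule genes NPG1 at 23896 normalized counts, S100A12 at 22713, AZU1 at 6082, RETN at 3072, PGLYRP1 at 5205, LTF at 11120.1, S100A8 at 16666 and S100A9 at 21572, the erythroid genes SLC4A1 at 15882, HBB at 840919, ALAS2 at 11367, HBM at 6581 and AHSP at 7664, and also S100G at 26222 and OSM at 416. Within S3-S14, S14 was highest in SEC14L3 at 406, CYP2C49 at 527 and CYP2E1 at 6848, S4 in GHR at 914, and the shallow S13 in CYP7A1 at 48.9. Within S16-S23, the shallow S22 was highest in AZU1 at 52.1, CD177 at 52.1, OSM at 52.2, IL1A at 104, PTGS2 at 106 and ALAS2 at 171, values of 1 to 3 reads in that library. S22 also stood apart in ANGPTL4 at 1252 and CYP7B1 at 7352, and S16 in CXCL12 at 3204.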

How the results depend on the processing

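The count for all liver libraries, 1851, was 5782 with no fold threshold, 564 with the sort label as a covariate, 747 in CD45+ and CD45-/EpCAM+ libraries with the label as a covariate, 1083 with the run as a random block (consensus correlation 0.314) and 152 on run means. In settings added after the data were seen it was 1221 without S5 and S14, 968 without the CD31+ and CD146+ libraries, 853 without S16 to S19 and 2193 without S12 to S14. It was 2340 without S13 and S22, a planned setting, and 1424 to 2123 with each library left out. Calls were split 1086 higher and 734 lower with equal totals and 967 and 867 with equal upper quartiles. The count within CD45+, 88, was 54 at a pseudocount of 0.1, 1623 with array weights, 194 without S13 and S22, and 11 to 165 with each library left out. That within CD45-/EpCAM+, 38, was 19, 1772 and 78 under the same settings and 14 to 63 with each library left out. The array weights in these 2 fits did not converge. The interaction had 0 calls under every setting run. The pBTSC count, 264, was 111 with a filter of 50 in 3 libraries, 24 without S15 and 129 to 450 with each library other than S15 left out. Causes were not tested.

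Among single genes, CYP2A19 became -0.063 without S16 to S19. OASL, at -0.27, became 0.21 with array weights, 0.31 with the label as a covariate and in the 2 shared labels alone, 0.23 without CD31+ and CD146+ libraries, and -0.66 to 0.14 with each library left out. PTPRC, at 0.09, became -0.070 with array weights and -0.15 to 0.25 with each library left out. Of the other single-gene values, 3100 kept direction and call, 176 lost the call and 9 gained it. Without S16 to S19 the calls of DIO2, IGF1, IGFBP1, ARG1, GLS2, SCD, HMGCS1, C3, APCS, ALAS2, KLF1, CD34, ISG15, CXCL10, AQP1, CD8B, MARCO, TNF, CXCL12, IL10 and CCL3L1 were among those lost. The replicate numbers are title numbers, and the sets share none, so the set difference could not be paired. The interaction with the run as a replicate block, a setting also added after the data were seen, had 0 calls. Depth limits S13, S22 and S15 most, where 3 reads are 77.1, 156 and 37.7 normalized counts.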
